A study of Mus musculus with 6 samples.

Results

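The serpins, a family of proteins most of which block serine proteases, were described in the aorta of wild-type and apoE-/- mice as the probe sets whose only gene symbol in the platform annotation starts with Serpin. The rule gave 56 probe sets for 40 genes, of 18193 genes with a named probe set. Total RNA of whole aorta was hybridised to 6 single-colour arrays, 3 from C57BL/6J wild-type mice and 3 from apoE-/- mice on the C57BL/6J background, all 32 weeks old. Mice without apolipoprotein E have high plasma cholesterol and develop atherosclerotic plaques. The labels number the replicates but do not say whether each was a single animal or a pool, so the p-values reflect the variation among the 6 extracts, part or all of which may be technical.

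A serpin offers its target protease an exposed reactive loop, and when the loop is cut the serpin changes shape and traps the protease in a covalent complex. The family is divided into lettered clades. Clade A holds secreted plasma proteins of the antitrypsin type, and clade B intracellular proteins that protect cells from leaked granule and lysosomal proteases. Clades C, D, F and G hold regulators of clotting, fibrinolysis and complement, and clade F also holds Serpinf1, which does not block proteases in its known role. Clade H is a collagen chaperone and clade I is neuroserpin and its relative, while clade E was not analysed here. Several clade A and clade B genes exist in the mouse as clusters of near-identical copies, whose transcripts can share probes, so a value given for Serpina1b, Serpina1c, Serpina3n, Serpinb6a to Serpinb6e or a Serpinb9 gene may include signal from a copy.

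The results turned on Serpina3n, the gene that differed between genotypes, and on the Serpina1 copies, which were far higher on apoE-/- replicate 3 than on the other arrays. Their promoters are printed to show the copies beside each other. Each is the 250 bases before the gene's start, 5′ to 3′ on the strand of the gene, from RefSeq in GRCm38.p6. Capitals mark the letters GTTAAT, the half-site of the liver factor HNF1, searched on both strands.
Serpina3n, chr12:104406458-104406707 on the plus strand: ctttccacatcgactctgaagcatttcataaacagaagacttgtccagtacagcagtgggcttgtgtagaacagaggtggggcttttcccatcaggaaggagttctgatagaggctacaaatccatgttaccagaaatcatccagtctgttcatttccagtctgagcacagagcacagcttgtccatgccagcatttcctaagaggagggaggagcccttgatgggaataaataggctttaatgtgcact
Serpina1b, chr12:103738190-103738439 on the minus strand: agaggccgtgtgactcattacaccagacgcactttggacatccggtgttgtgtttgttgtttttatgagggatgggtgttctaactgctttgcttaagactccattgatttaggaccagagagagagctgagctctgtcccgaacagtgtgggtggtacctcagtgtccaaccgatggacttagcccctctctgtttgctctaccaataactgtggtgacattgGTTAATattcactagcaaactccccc
Serpina1c, chr12:103904951-103905200 on the minus strand: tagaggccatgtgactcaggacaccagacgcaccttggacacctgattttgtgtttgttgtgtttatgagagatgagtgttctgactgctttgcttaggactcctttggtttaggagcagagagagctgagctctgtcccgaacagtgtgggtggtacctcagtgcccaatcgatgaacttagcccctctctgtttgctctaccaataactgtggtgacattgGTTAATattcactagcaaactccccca
The Serpina1b and Serpina1c promoters were identical at 229 of 248 aligned bases (92.3%). Each held a single GTTAAT, and the Serpina3n window held none. The Serpinc1 window, from a liver-made serpin that was likewise highest on apoE-/- replicate 3, held none either. GTTAAT occurred in 6.43% of all 32851 promoter windows of this length and in 6 of the 40 windows of the 34 serpin genes that had an entry. TTCNNNGAA, the site of STAT factors, was searched in the same way and did not occur in these 3 windows. It occurred in 7 of the 40 serpin windows and in 7.02% of all windows. A match is a description of letters and not of binding.

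Intensities are in the scaled array units of the deposited table and are comparable between arrays for a probe set but not between probe sets. A gene was tested where a probe set of it was above the lower 40% of all probe sets by mean over the 6 arrays, and its brightest such probe set stood for it. This kept 26 of the 56 serpin probe sets and 19 of the 40 genes. Differences are log2 changes on log2(intensity + 16), apoE-/- minus wild type, from limma fitted across 13031 genes, and a gene was said to rise or fall at a Benjamini-Hochberg adjusted p under 0.05. Of these genes 410 rose, which is 3.15%, and 63 fell, which is 0.483%. As a check of the labels, Apoe read 4309 to 5686 units on the wild-type arrays and 56.3 to 462.1 units on the apoE-/- arrays.

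Among the 19 serpin genes tested, 1 rose and none fell in limma, against those background shares of 3.15% and 0.483%. The gene that rose was Serpina3n, a secreted inhibitor of the antichymotrypsin type that is induced in acute-phase and inflammatory responses. At an unadjusted p under 0.05, 4 serpin genes were higher and 1 was lower, where 9.56% and 8.81% of all genes were. With each of the 26 probe sets tested on its own, Serpina3n was again the only gene called, where 2.44% of 27022 probe sets were higher and 0.281% lower at the threshold. The median log2 change of the 19 was 0.14, with 12 positive, beside a median of -0.05 and 41.1% positive over all genes tested. That median rested on a single array, being -0.05 for the serpins and -0.04 for all genes without apoE-/- replicate 3.

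**Figure D1:**
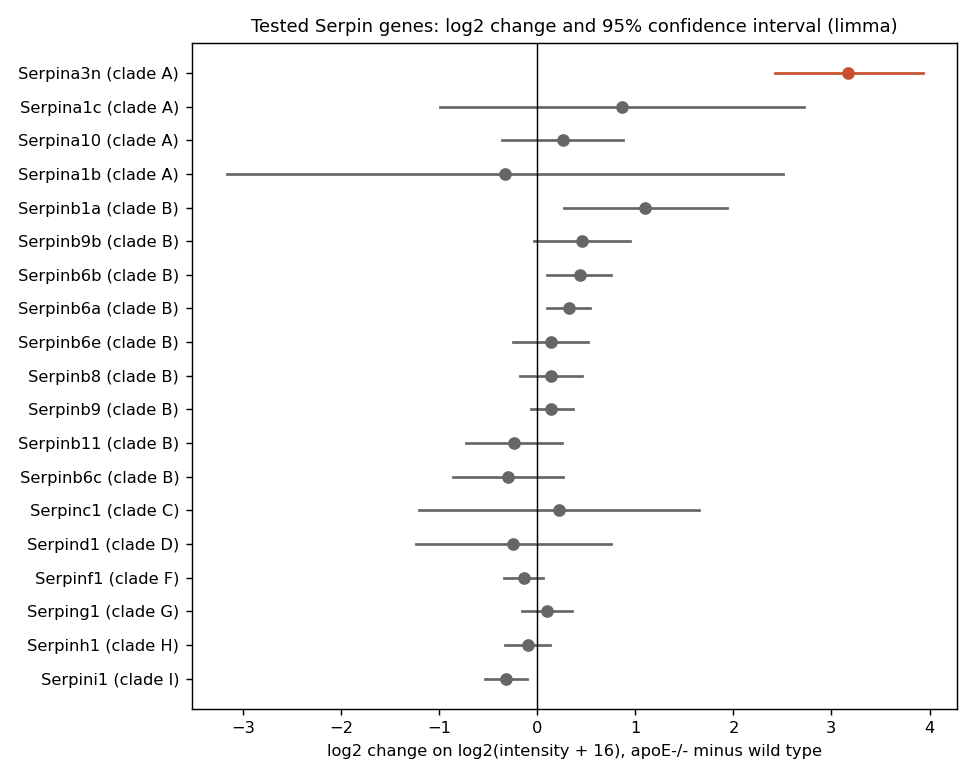
Log2 change (apoE-/- minus wild type, on log2(intensity + 16)) of the 19 tested serpin genes, with points for the limma estimate, lines for the 95% confidence interval and rows ordered by clade. Serpina3n, in orange, was the only gene called, at 3.17, and the widest intervals were those of Serpina1b and Serpina1c.

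Serpina3n read 435.6, 371.4 and 186.9 units on wild-type replicates 1, 2 and 3 and 4187, 2007 and 3057 units on apoE-/- replicates 1, 2 and 3. Every apoE-/- array lay far above every wild-type array, with replicate 2 the lowest of the apoE-/- arrays. The means were 331 ± 129 and 3084 ± 1090 units (SD, n = 3), a ratio of 9.31, and the log2 change was 3.17 ± 0.33 (SE, limma adjusted p = 0.0019, higher in 3 of 3 apoE-/- arrays). The 95% confidence interval of the fold on this scale was 5.36 to 15.2. Serpina3n was 15th by log2 change among the 13031 genes. It was called under each of the 17 other settings that tested it, with log2 changes between 2.83 and 3.45 and adjusted p-values between 0.00109 and 0.0154.

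Beside this rise, macrophage markers were higher on the same arrays. Of 11 such genes tested 10 rose, where 3.15% of all genes did. Their summed intensity was 13263 to 14953 units on wild-type and 41340 to 62201 units on apoE-/- arrays, with apoE-/- replicate 2 the lowest of its group here too. None of these markers was at 0, and the dimmest, Mmp12 and Trem2, read 14.2 to 64.8 and 17.0 to 34.0 units in wild type. Summed markers of adventitial fibroblasts also did not overlap, at 40861 to 42943 against 47122 to 58816 units, and apoE-/- replicate 2 was again the lowest of its group. It was also the lowest of its group for the summed hepatocyte, adipocyte, and T and B cell markers, so this order is not particular to macrophages and fibroblasts. Of the 6 fibroblast genes 1 rose, which was Lum, where 3.15% of all genes rose. Only 2 of the 6, Lum and Col1a1, were higher on every apoE-/- array, where 10.9% of all genes were. The other fibroblast markers overlapped between genotypes. The part of macrophages and fibroblasts in the Serpina3n result was not tested. In a whole-tissue extract, more cells of a type and more RNA per cell cannot be told apart.

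Clade A held 14 member genes, 4 of which were tested. Apart from Serpina3n these were Serpina1b and Serpina1c, copies of the antitrypsin gene that restrains neutrophil elastase, and Serpina10, the cofactor-dependent inhibitor of factor Xa. Serpina1c read 837.9, 340.7 and 686.0 units in wild type and 403.3, 583.4 and 5106 units in apoE-/-. The high value was that of apoE-/- replicate 3 alone, and the other apoE-/- arrays lay inside the wild-type range. Its log2 change was 0.86 ± 0.82 (SE, limma adjusted p = 0.621) with all arrays and -0.25 without apoE-/- replicate 3. Serpina1b read 637.3, 227.2 and 423.6 units in wild type and 292.6, 23.9 and 2827 units in apoE-/-, again with replicate 3 on top. A further Serpina1b probe set read 124.6 to 302.1 units in wild type and 172.2, 16.7 and 2925 units in apoE-/-. These 2 probe sets had log2 changes of opposite sign, -0.33 and 0.33, neither of them called. For the first, the log2 change was -1.89 without apoE-/- replicate 3 and 1.19 without replicate 2.

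The coagulation inhibitors did not pass the test. The list had 4 genes, of which 3 were tested and none was called or free of overlap between the groups. Serpinc1, antithrombin, which blocks thrombin and factor Xa, read 248.1, 168.7 and 247.1 units in wild type and 126.0, 138.0 and 908.7 units in apoE-/-. On apoE-/- replicates 1 and 2 it was below all wild-type arrays and on replicate 3 above all of them. Its log2 change was 0.22 ± 0.63 (SE, limma adjusted p = 0.886), and without apoE-/- replicate 3 it was -0.66 ± 0.23 (adjusted p = 0.296). Serpind1, heparin cofactor II, which blocks thrombin on dermatan sulfate, read 198.1, 93.5 and 186.4 units in wild type and 123.5, 62.3 and 243.9 units in apoE-/-. Its groups overlapped (log2 change -0.25 ± 0.44, adjusted p = 0.808), and without apoE-/- replicate 2 the log2 change was 0.18. Serpina10 read 179.1, 232.0 and 261.5 units in wild type and 214.7, 213.4 and 415.3 units in apoE-/-, so that its high value was again on replicate 3. The log2 change of Serpina10 was 0.26 ± 0.27 (adjusted p = 0.66) and -0.05 without that array. Serpina5, the protein C inhibitor, was under the filter, at 14.6 to 19.2 units in wild type and 7.3 to 14.1 units in apoE-/-.

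Markers of hepatocytes, the cells that make most plasma serpins, showed the same array. The summed intensity of 9 hepatocyte genes was 30312 units on apoE-/- replicate 3 and 2190 to 5402 units on the other 5 arrays, with none of the 6 tested genes called between genotypes. Of the 9 genes, 8 were highest on apoE-/- replicate 3, at 3.33 times the highest other array for Alb and up to 12.4 times for Ttr, the thyroxine carrier. Hp was the exception and made up much of the sum on some arrays, at 3492 of 4408 units on wild type replicate 2. Alb and Ttr read 2028 and 588.6 units on wild type replicate 1 and 1587 and 751.2 units on wild type replicate 3. On wild type replicate 2 and apoE-/- replicates 1 and 2 they read at most 350.6 and 117.4 units. Apoa1, Apoa2, Fga, Fgb and Fgg were likewise lower there, and Ahsg was not. Log2 changes without apoE-/- replicate 3 still hold these differences. Of 8 serpins made mainly in liver, a set chosen after their values were seen, all 8 were highest on apoE-/- replicate 3. The ratio to the highest other array was 1.21 for Serpina6, the corticosteroid carrier, and up to 6.09 for Serpina1c. The part of hepatocyte RNA in the serpin values of that array was not tested. Serpina3n did not follow this pattern, its highest value being on apoE-/- replicate 1 and its log2 change 3.15 without replicate 3. Serping1 and Serpinf1, also outside the set of 8, had their highest values on apoE-/- replicate 1 and wild type replicate 1.

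**Figure D2:**
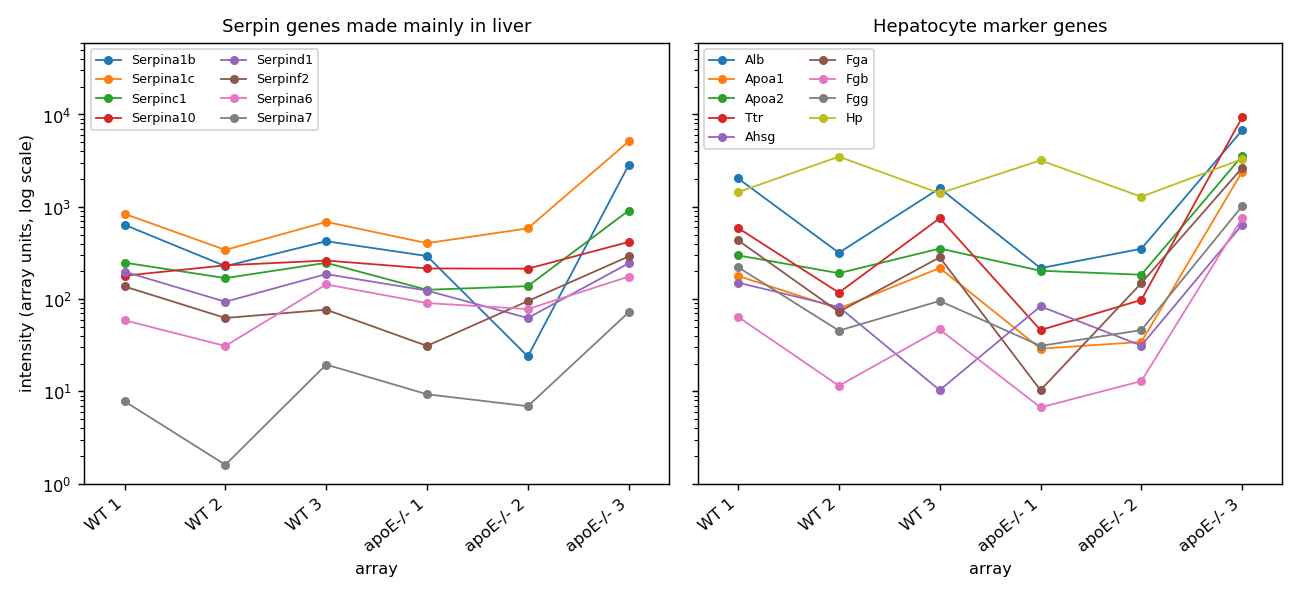
Intensity on each of the 6 arrays (log scale, array units) of 8 serpins made mainly in liver (left) and 9 hepatocyte marker genes (right), where lines only join the values of a gene and the arrays have no order. The 8 serpins were chosen after their values were seen, so their count is no test. All 8 serpins and 8 of the 9 marker genes were highest on apoE-/- replicate 3, Hp being the exception.

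The fibrinolysis inhibitors gave a single testable gene, which missed the threshold. Of 5 listed genes, 3 had a named probe set and 1 was tested. Serpini1, neuroserpin, an inhibitor of tissue plasminogen activator best known from neurons, read 2216, 2021 and 2094 units in wild type and 1717, 1801 and 1561 units in apoE-/-. All apoE-/- arrays were below all wild-type arrays, as they were for 13.8% of all genes. The means were 2110 ± 98.4 and 1693 ± 122 units (SD, n = 3), and the log2 change was -0.32 ± 0.09 (SE, limma adjusted p = 0.117). A further probe set of Serpini1 gave a log2 change of -0.30, also without overlap. Leaving out each array in turn gave log2 changes from -0.36 to -0.26, none of them called.

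Serpinf2, the plasmin inhibitor alpha2-antiplasmin, and Serpinb2, the macrophage inhibitor of urokinase known as PAI-2, were under the filter. Serpinf2 read 137.0, 62.4 and 76.7 units in wild type and 31.1, 95.1 and 289.6 units in apoE-/-. Its highest value was on apoE-/- replicate 3, the array with the highest sum of hepatocyte markers. Serpinb2 read 36.1, 53.8 and 42.9 units in wild type and between 35.5 and 76.2 units in apoE-/-. The groups overlapped, and the table has no detection calls, so whether these values are above background is not known.

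Serping1, the C1 inhibitor that stops the first complement proteases and plasma kallikrein, differed little. It read 9370, 9984 and 8466 units in wild type and 11312, 9137 and 9343 units in apoE-/-. The groups overlapped, with apoE-/- replicate 1 the highest array. The log2 change was 0.10 ± 0.11 (SE, limma adjusted p = 0.692), and the 95% confidence interval of the fold was 0.897 to 1.27. Of 8 tested early complement genes 4 rose and none fell, against 3.15% of all genes that rose. Of these 4, 3 were chains of the recognition unit and not proteases, C1qc, C1qb and C1qa, with log2 changes of 2.17 ± 0.21, 2.04 ± 0.18 and 1.86 ± 0.15 (SE). The other was the protease C1ra, which Serping1 inactivates. The tested proteases C1s1, C2, Masp1 and Masp2 were not called. Their log2 changes were 0.50, 0.32, -0.01 and -0.12 (limma adjusted p = 0.0621, 0.298, 0.972 and 0.808). C1ra changed from 1749 ± 220 to 2735 ± 382 units (SD, n = 3, log2 change 0.64, adjusted p = 0.0368). That call was lost without wild type replicate 2 or 3 and without apoE-/- replicate 1 or 3 (adjusted p from 0.0943 to 0.148), and also with no filter (0.0577) or no intensity trend (0.0846). Of 11 macrophage markers tested 10 rose on the same arrays, and their part in these complement values was not tested.

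Serpinh1, the chaperone of the endoplasmic reticulum that folds procollagen, and Serpinf1, the anti-angiogenic protein PEDF, do not block proteases in their known roles. Serpinh1 read 8369, 7966 and 8938 units in wild type and 7137, 8787 and 7742 units in apoE-/-, and the groups overlapped. Its log2 change was -0.10 ± 0.10 (SE, limma adjusted p = 0.65), with a 95% confidence interval of the fold from 0.797 to 1.1. A further probe set gave 0.01. Of 14 tested collagen chains and collagen-folding genes none passed in limma. At an unadjusted p under 0.05, 2 were higher and 0 lower, where 9.56% and 8.81% of all genes were. Of the 14, 85.7% had positive log2 changes, beside 41.1% of all genes, with a median of 0.07. On every apoE-/- array 4 of the 14 were higher than in wild type, where 10.9% of all genes were. The smallest p was that of Col1a1, at 5668 ± 215 against 8448 ± 1690 units (SD, n = 3, log2 change 0.56 ± 0.13, adjusted p = 0.0619). Col1a1 was called after quantile normalization, with array weights and without apoE-/- replicate 2, at adjusted p-values of 0.0153, 0.0373 and 0.0341.

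Serpinf1 read 7939, 7149 and 6884 units in wild type and 6800, 6767 and 6353 units in apoE-/-. The groups did not overlap, though the gap between them was small. The log2 change was -0.14 ± 0.09 (SE, limma adjusted p = 0.449). A further probe set read 3837, 3417 and 3157 units in wild type and 2711, 2612 and 2820 units in apoE-/-. There the groups stood further apart, with a log2 change of -0.35 (adjusted p = 0.122 over all 27022 probe sets). So the probe sets of Serpinf1 had the same sign and different sizes, and neither was called.

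**Figure D3:**
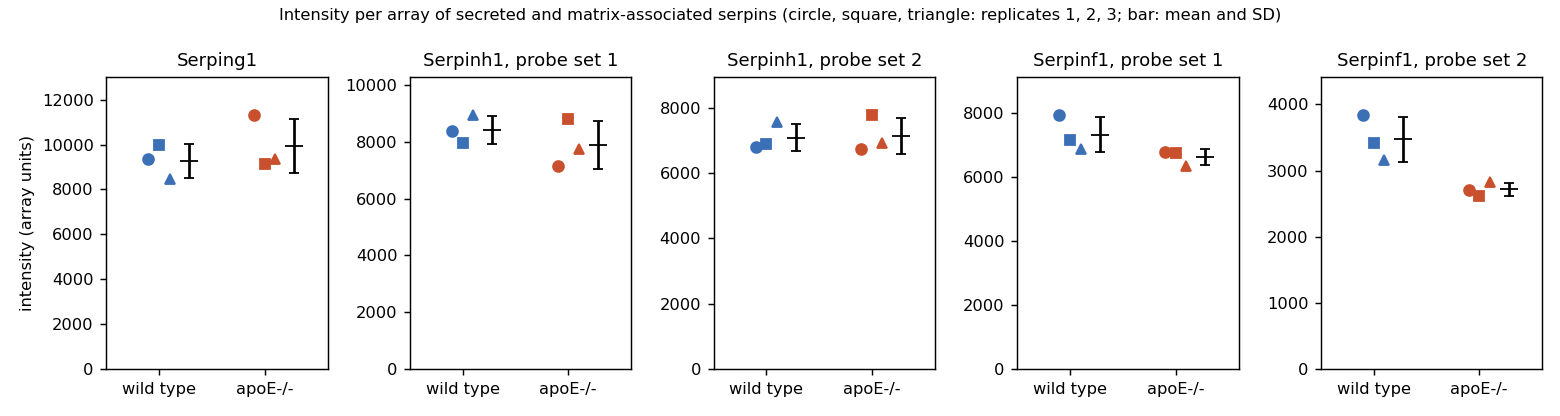
Intensity per array (array units, axes from 0) of Serping1 and of 2 probe sets each of Serpinh1 and Serpinf1, with points for replicates 1, 2 and 3 and black bars for the mean and SD of 3 arrays. The genotypes overlap for Serping1 and Serpinh1, whereas both Serpinf1 probe sets are lower on all apoE-/- arrays, at 6640 against 7324 and at 2714 against 3470 units.

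Clade B, the intracellular serpins, held 18 member genes, of which 9 were tested and none was called. Of the 9, 7 had positive log2 changes and 4 were higher on every apoE-/- array than on every wild-type array, where 10.9% of all genes were. At an unadjusted p under 0.05, 3 were higher and 0 lower, beside 9.56% and 8.81% of all genes. Leaving out any single array left all 9 uncalled.

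Serpinb6a, which guards cells against lysosomal and granule proteases such as cathepsin G, read 4803, 5316 and 4505 units in wild type and 6378, 5596 and 6292 units in apoE-/-. The groups did not overlap. The log2 change was 0.32 ± 0.10 (SE, limma adjusted p = 0.128), and after quantile normalization it was called, at 0.35 with an adjusted p of 0.0485. Serpinb6b, a neighbouring copy, read 2435, 2716 and 1859 units in wild type and 3288, 2780 and 3282 units in apoE-/-, with a small gap between the groups. Its log2 change was 0.43 ± 0.14 (adjusted p = 0.165). For Serpinb6e and Serpinb6c the groups overlapped, with log2 changes of 0.14 and -0.30.

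Serpinb1a, an inhibitor of neutrophil elastase, cathepsin G and proteinase 3, had the largest log2 change of the 9 tested genes of the clade. It read 163.0, 219.8 and 102.6 units in wild type and 272.8, 250.7 and 623.9 units in apoE-/-. All apoE-/- arrays were higher, and replicate 3 stood far above the other two. The log2 change was 1.10 ± 0.37 (SE, limma adjusted p = 0.159) and 0.70 without apoE-/- replicate 3. A further probe set gave 0.71, also without overlap. Serpinb9, the inhibitor of granzyme B, read 1471 to 1689 units in wild type and 1696 to 1862 units in apoE-/-, a log2 change of 0.14 ± 0.09 (adjusted p = 0.46). Serpinb9b, a copy of it, gave 0.45 ± 0.21 (adjusted p = 0.302). The 2 probe sets of Serpinb8 gave 0.14 and 0.45, with overlapping groups in the first and none in the second. Serpinb11 had a log2 change of -0.24 and overlapping groups.

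**Figure D4:**
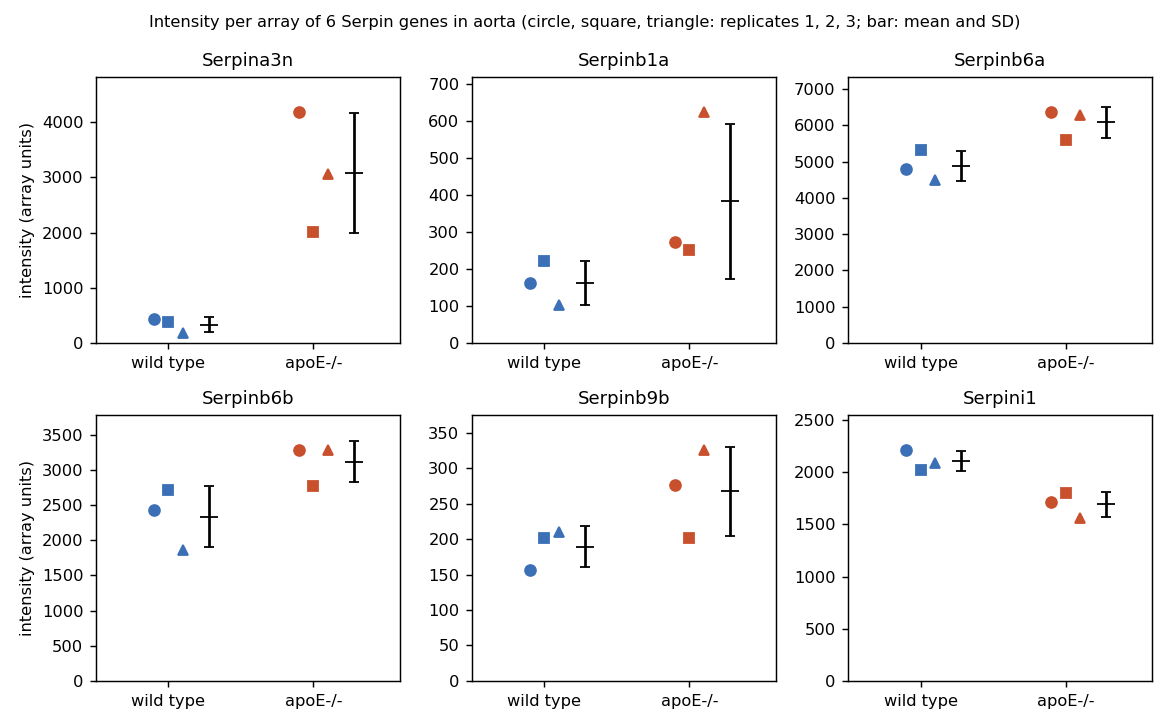
Intensity per array (array units, axes from 0) of 6 serpin genes by genotype, with circle, square and triangle for replicates 1, 2 and 3 and black bars for the mean and SD of 3 arrays. The genotypes do not overlap for any gene but Serpinb9b, and the Serpina3n means are 331 and 3084 units.

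The list of granule serine proteases, a class that many clade B serpins target, showed no called gene among those tested. Of 13 listed genes 9 were tested, with 0 higher and 0 lower even at an unadjusted p under 0.05 in limma. The tested genes included Prf1 and Cpa3, which are not serine proteases. Elane, Prtn3, Ctsg and Gzmb, which encode the targets named above for Serpinb1a, Serpinb6a and Serpinb9, were not tested. The smallest p was that of the mast cell tryptase Tpsb2 (log2 change 0.54). Among summed marker lists, those of neutrophils and mast cells overlapped between genotypes, at 2420 to 3793 against 2638 to 3622 units, and the weak neutrophil markers Camp and Elane read 9.7 to 166.1 units on all arrays. Summed markers of T and B cells, endothelium, adipocytes, keratinocytes and smooth muscle overlapped as well. By gene, all 6 endothelial log2 changes were positive, beside 41.1% of all genes. All tested smooth muscle (7), adipocyte (4) and keratinocyte (3) changes were negative, and T and B cell changes were mixed. Without overlap, 2 endothelial genes were higher, and 2 smooth muscle genes and 1 keratinocyte gene were lower, where 10.9% of all genes were higher and 13.8% lower. Of these lists a single gene was called, the endothelial Emcn, which rose, as 3.15% of all genes did. Skeletal muscle markers were lower, with 2 of 4 tested falling, against 0.483% of all genes. Their sums were 2788, 2730 and 17754 units in wild type and 1316 to 1555 units in apoE-/-, the high value being that of wild type replicate 3 alone.

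No tested partner of the clotting and fibrinolytic serpins was called, while most had positive log2 changes. Of 15 tested genes of coagulation and its regulators none was called in limma, and 4 were higher and 0 lower at an unadjusted p under 0.05, where 9.56% and 8.81% of all genes were. Of the 15, 80% had positive log2 changes, beside 41.1% of all genes. On every apoE-/- array 3 of the 15 were higher than in wild type, where 10.9% of all genes were. Some positive values rested on apoE-/- replicate 3, the array with the highest sum of hepatocyte markers. F2 read 160.8, 153.3 and 780.7 units in apoE-/- and 199.3 to 245.9 units in wild type. The smallest p was that of Pros1, the cofactor protein S (1549 ± 157 against 2073 ± 254 units, SD, n = 3, log2 change 0.41 ± 0.12, adjusted p = 0.115). Of 7 tested genes of plasminogen activation none was called, and 3 were higher and 0 lower at an unadjusted p under 0.05. All 7 log2 changes were positive, that of Plat being 0.00, and 2 of the 7 were higher on every apoE-/- array. Vtn read 127.4, 65.2 and 567.8 units in apoE-/- and 114.4 to 141.9 units in wild type, again with replicate 3 on top. Lrp1, the receptor that clears serpin-protease complexes, had the smallest p, with a log2 change of 0.27 ± 0.10 (adjusted p = 0.192), and was called with the median of its probe sets, at 0.54 (adjusted p = 0.0199).

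The 21 member genes under the filter read from 1.6 to 289.6 units on the brightest probe set of each. By these probe sets none had all apoE-/- arrays higher and 4 had all lower, which were Serpina5, Serpina12, Serpinb7 and Serpinb12. Of the genes tested, 10.9% were higher and 13.8% lower without overlap. A further Serpina12 probe set overlapped, with a log2 difference of 0.13 against -0.24 for the brightest. Serpinb7, known from skin and kidney, read 142.9, 118.0 and 126.2 units in wild type and 54.2, 50.7 and 76.6 units in apoE-/-. Serpinb12 read 45.8, 20.5 and 23.6 units in wild type and 4.7, 2.7 and 4.9 units in apoE-/-. With no filter, none of the 21 was called, and the log2 changes of these 2 genes were -0.93 (limma adjusted p = 0.102) and -1.15 (adjusted p = 0.0637). At such intensities the deposited table does not show which values are above background.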

How the data were processed

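Total RNA of 6 aorta extracts was measured on 6 arrays, 3 per genotype. The deposited table holds 1 linear intensity per probe set; tested on the values, the authors had scaled every array to a mean of 500.002 after trimming 2% at each end. The software is not given in the sources used here. Array medians were 178 to 195.5 units, and with 3 arrays a group their number sets the precision. Of 35890 annotated probe sets, 34958 had 1 symbol and 932 several, which named no gene. Symbols were updated through the GRCm38.p6 gene table (34754 matched), used for names only. The 64 control probe sets and the lower 40% of the others by mean log2(intensity + 16), 18015 of them, were left out.

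limma 3.58.1 in R 4.3.3 (lmFit, eBayes with trend) was fitted with genotype as the only term on 13031 genes, and separately on 27022 probe sets. In a test on simulated arrays of the 13031 genes it recovered 91 of 100 genes changed 2-fold and 98 of 100 changed 4-fold, with 13 false calls among 202. The smallest two-sided p of an exact permutation test is 0.1 in this design, and no such test was run. Members, marker lists and pathway lists were chosen with earlier results of these data known. Named were all members, and of each pathway list up to 4 called genes by size or the gene of smallest p. Emcn, Lum, Mmp12, Trem2, Camp, Elane, Prtn3, Ctsg, Gzmb, Prf1, Cpa3, F2, Vtn, Plat, C1s1, C2, Masp1, Masp2 and the hepatocyte genes were named after their values were seen. Alternatives were log offsets of 1 and 64, quantile normalization, median centring, no filter, a 60% filter, no trend, array weights, the median of probe sets, each probe set by itself, the replicate number as a block, a minimum change of 2-fold, and leaving out each array. Promoters came from RefSeq (GRCm38.p6) and were aligned with Biopython 1.88.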

Additional observations from a re-analysis of the deposited data

How the results depend on the processing

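The counts of serpin genes that rose (1) and fell (0) held under every alternative but quantile normalization, which gave 2 rises by adding Serpinb6a. The median log2 change of the tested serpins was 0.12 to 0.20 under the alternatives that kept all arrays, and -0.05 to 0.19 when each array was left out. Of 316 values of the 19 serpin genes under single alternatives, 308 kept their direction and side of the threshold, 1 passed it and 7 changed sign, all of these uncalled and all on leaving out an array. Over those omissions Serpina1c ranged from -0.25 to 1.55, Serpina1b from -1.89 to 1.19, Serpinc1 from -0.66 to 0.69, Serpina10 from -0.05 to 0.41, Serpind1 from -0.69 to 0.18 and Serping1 from -0.00 to 0.15. Apart from the array left out, the cause was not tested. The replicate block gave 1 rise and 0 falls among the serpins, and over all genes it gave 301 calls against 473. Same-numbered arrays deviated from their group means with r from -0.181 to -0.0519 across genes. With 3 arrays a group this cannot show whether they were paired, and the labels do not say. Calls over all genes were 309 without trend and 155 to 701 when each array was left out. Intensities without detection calls limit what can be said of the 21 untested genes.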

Other observations

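A further 3 probe sets carried several Serpin symbols and stood outside the rule. The probe set shared by Serpina1a and Serpina1d read 266.6, 5.6 and 224.0 units in wild type and 2.1, 16.4 and 2825 units in apoE-/-. Its high value was on apoE-/- replicate 3, as for Serpina1b and Serpina1c. The probe set shared by Serpina1b, Serpina1c and Serpina1e read 3.8 to 17.4 units in wild type and at most 10.7 units on apoE-/- replicates 1 and 2, and 74.5 units on replicate 3. The probe set shared by 4 Serpinb9 copies read 303.1, 227.8 and 404.8 units in wild type and 179.6, 179.4 and 271.7 units in apoE-/-, with overlapping groups.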
